A study of Mus musculus with 33 samples.

Results

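Ovaries labelled Fshb(-/-) were compared with ovaries labelled Fshb(+/-) across all expressed genes. The comparison used every library of polyadenylated RNA that carries these genotype labels in the first of 3 experiments, 3 libraries each, 6 of the 33 mouse ovary libraries in all. Fshb(-/-) mice lack both intact copies of Fshb, and Fshb(+/-) mice keep 1. The same experiment held 3 libraries labelled WT, given below as levels, and a second experiment held 4 libraries labelled Fshb(-/-) and 4 of the same genotype with the human gene as a transgene, HFSHB, called the rescue. The stage of the estrous cycle is entered as NA for all of these libraries, and their titles hold the letters NS, which the labels do not explain. Strain, age, the number of ovaries per library and the promoter that drives the transgene are not stated in the labels. Since the labels do not tie libraries to separate animals, p-values refer to the spread among these libraries, part of which may be technical. The question the genotypes address is which ovarian transcripts differ when the hormone's own subunit is lost.

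Follicle-stimulating hormone (FSH) is a pituitary dimer of a common alpha subunit and the beta subunit that Fshb encodes. It binds FSHR on granulosa cells, raises cyclic AMP and drives growing follicles past the stage at which an antral cavity forms, with aromatase, inhibin and activin subunits and the LH receptor among its classical target genes. Theca cells outside the follicle make androgens under luteinizing hormone (LH), and granulosa cells turn those androgens into estrogens. After ovulation the follicle wall becomes a corpus luteum, which takes up cholesterol and makes progesterone.

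The 6 libraries held 13.6 M to 16.5 M estimated counts each, and levels are given as CPM, counts relative to a common library total, on totals scaled by the trimmed mean of M values (TMM). Fshb itself (chromosome 2, 107056140 to 107059656, minus strand, GRCm38) did not separate the groups. Its counts were 68, 79 and 82 with the label Fshb(-/-), 43, 60 and 106 with the label Fshb(+/-), and 1, 1 and 0 with the label WT. The summed counts of 229 and 209 gave a ratio of 1.13 per total count (95% counting interval 0.929 to 1.36), and the log2 fold change of 0.16 ± 0.40 (standard error) did not pass the test (adjusted p = 0.82). The count of 0 allows up to 3 counts, and this limit and the interval cover counting error only. In the 12 libraries labelled WT of the third experiment the counts ran from 0 to 198. In the second experiment they were 169, 184, 176 and 119 with the label Fshb(-/-) and 221, 270, 370 and 431 in the rescue. There Fshb was called lower in Fshb(-/-) than in the rescue (-1.09 ± 0.24, adjusted p = 0.010). Fshb is a pituitary gene, its ovarian counts do not tell Fshb(-/-) from Fshb(+/-), and a count per gene does not tell reads of a targeted allele from those of an intact one. Each direction below therefore rests on the labels, and the groups are libraries labelled as named.

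One library stood apart. Fshb(+/-) replicate 3 held 1404 CPM of 12 oviduct epithelium genes in sum, per total count, against 58.2 and 16.4 CPM in the other Fshb(+/-) libraries and 14.04 to 19.4 CPM in those labelled Fshb(-/-). Its 8 smooth muscle genes summed to 4386 CPM, against 1590 and 1714 CPM in the other Fshb(+/-) libraries and 1444 to 1837 CPM in Fshb(-/-). Its correlation with the other 2 Fshb(+/-) libraries across genes was 0.956 and 0.963 on the log2(CPM + 1) scale, whereas that pair correlated at 0.982 and the Fshb(-/-) libraries at 0.983 to 0.991. The median SD of log2(CPM + 1) per gene was 0.168 in Fshb(-/-) and 0.189 in Fshb(+/-), where it was 0.130 without replicate 3. Among 17223 genes, 107 had an SD over 1 in Fshb(-/-) and 568 in Fshb(+/-), 218 without replicate 3. Results that rest on this library are given with and without it.

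Of 17223 genes tested, 2928 (17.0%) passed at an adjusted p under 0.05 by edgeR, 1568 (9.10%) with a higher and 1360 (7.90%) with a lower level under the label Fshb(-/-). The median log2 fold change over all tested genes was -0.02. More genes fell than rose by a large amount: 270 fell and 153 rose at least 4-fold, and the median was -1.13 among the lower and 0.96 among the higher genes. These sizes include Fshb(+/-) replicate 3 and were not taken again without it. Without that library 1250 genes were called higher and 1076 lower. Of the called genes 91.7% were protein coding, against 86.3% of all tested. The groups did not overlap for 2914 of the 2928, where 37.7% of all tested genes showed no overlap. The count was 1362 without Fshb(-/-) replicate 1, 1888 without replicate 2 and 1563 without replicate 3 of that group, and 2154 to 2581 without any 1 Fshb(+/-) library. The plot of all tested genes shows the spread of both directions over the range of levels.

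**Figure D1:**
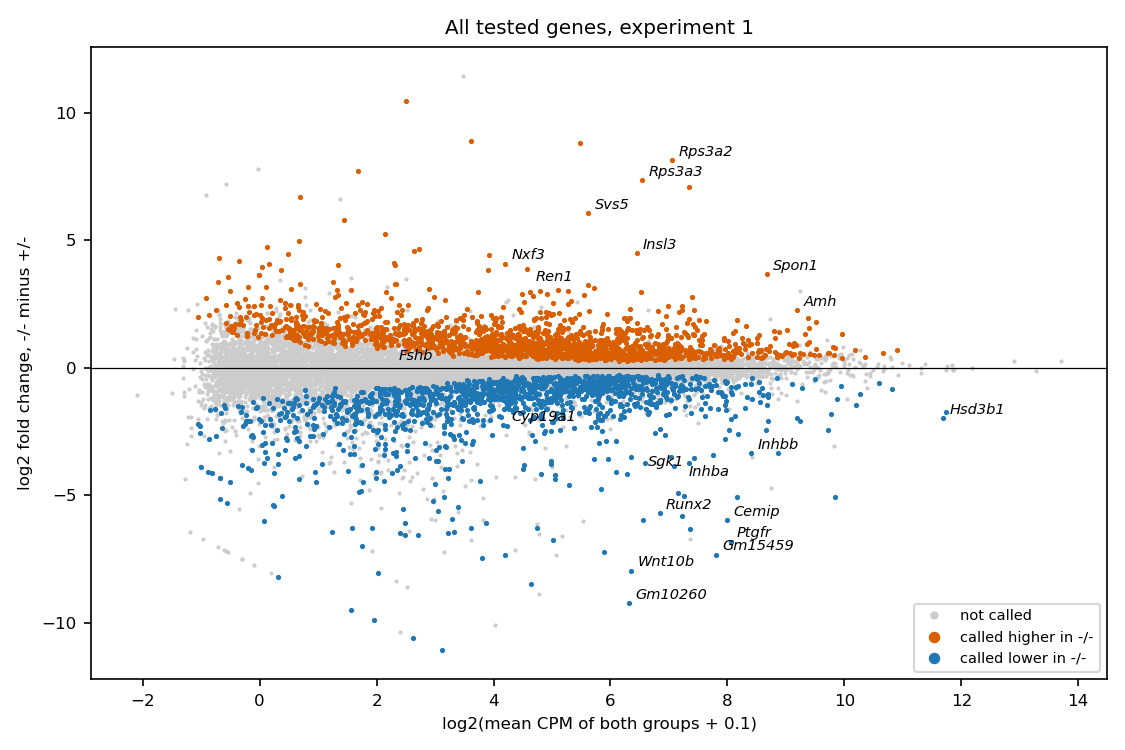
Each point is 1 of 17223 tested genes, with log2(mean CPM of both groups + 0.1) on the x axis and the log2 fold change of libraries labelled Fshb(-/-) over those labelled Fshb(+/-) on the y axis. The 1568 genes called higher are orange, the 1360 called lower are blue, and 48 called points lie under -5 while 11 lie above 5. Fshb(+/-) replicate 3 is included.

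Gene lists by role are described by how many members passed, beside the shares of 9.10% and 7.90% for all tested genes. Oocyte and maternal effect lists were the lists of over 10 tested members with the largest share higher, and the endothelium, clock, luteal, WNT and lipid droplet lists had the largest shares lower. No member passed by edgeR in the cholesterol synthesis, smooth muscle, adipocyte, erythrocyte, lymphocyte and neutrophil, pituitary and mitochondrial lists, where 10 of 54 tested genes had an unadjusted p under 0.05, DESeq2 called 5 and limma voom 1. Over all genes, 5722 of 17223 had an unadjusted p under 0.05 by edgeR, DESeq2 called 3986 and limma voom 3839. The plot of gene lists shows the shares called by edgeR side by side.

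**Figure D2:**
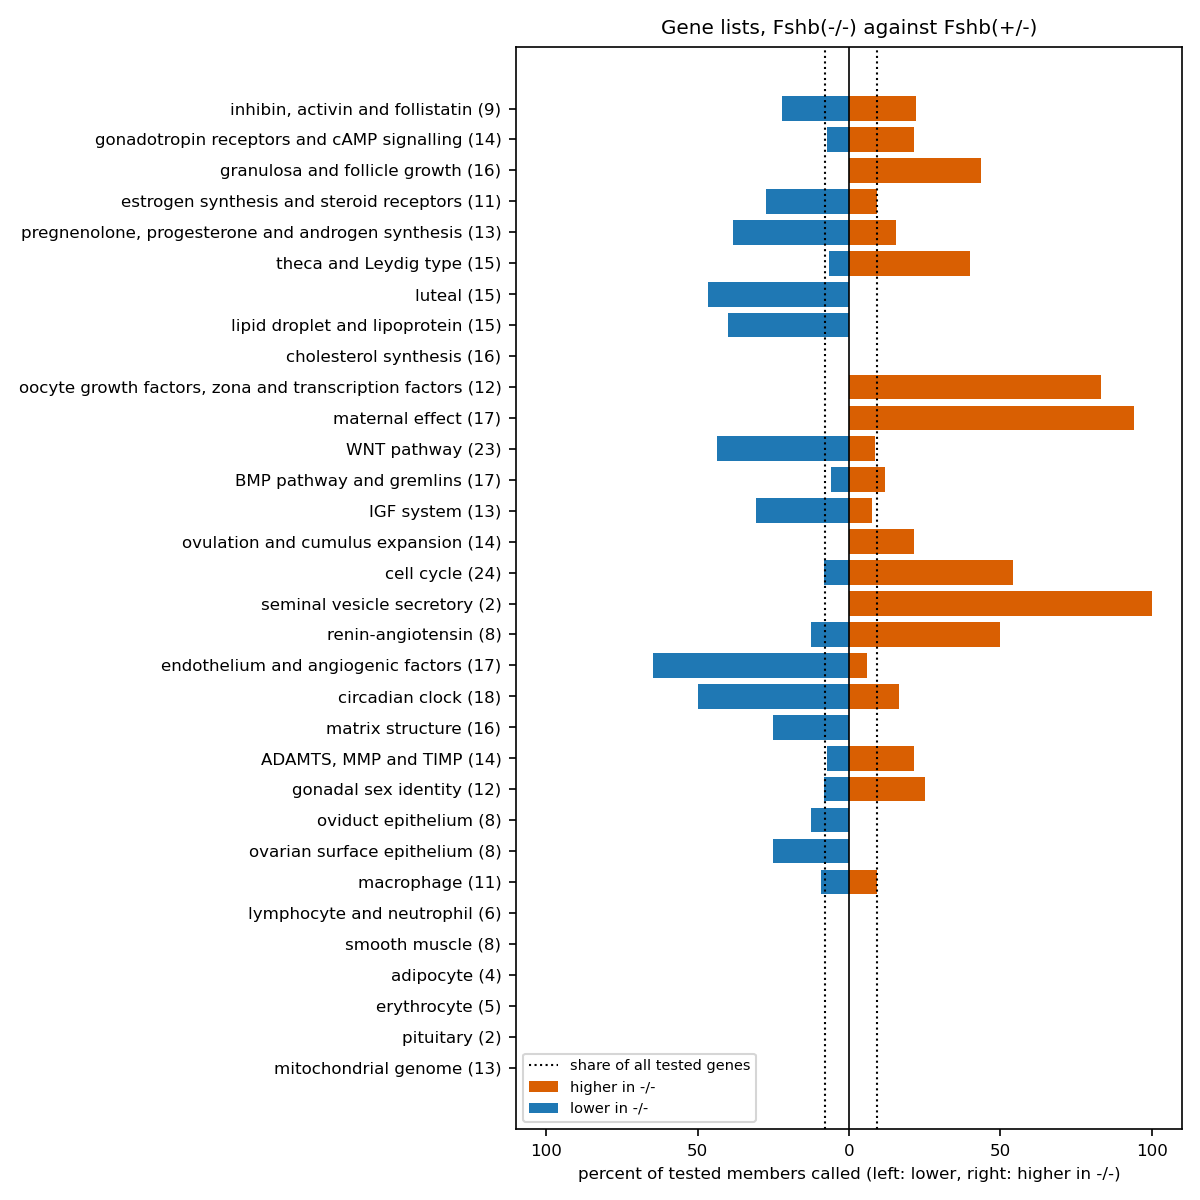
Bars give the percent of tested members of each list that passed the test, to the right where higher and to the left where lower in libraries labelled Fshb(-/-), with the number tested in parentheses and dotted lines at 9.10% and 7.90% for all tested genes. Of 17 maternal effect genes 16 were higher, and of 17 endothelium and angiogenic genes 11 were lower.

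Transcripts of both inhibin and activin beta subunits fell in the libraries labelled Fshb(-/-). That of the alpha subunit was higher than in Fshb(+/-) and within the WT range. Inhba (chromosome 13, 16011851 to 16031621, plus strand, GRCm38, as all coordinates from GENCODE M21), which encodes the beta A subunit, had 41.4, 30.4 and 37.4 CPM in Fshb(-/-), against 325, 498 and 364 CPM in Fshb(+/-). Every Fshb(-/-) library lay below every Fshb(+/-) library, by a log2 fold change of -3.44 ± 0.33 (adjusted p = 0.00062, n = 3 each). Libraries labelled WT held 668, 1181 and 497 CPM. Inhbb, which encodes the beta B subunit, had 63.5, 74.5 and 44.3 CPM in Fshb(-/-) and 830.3, 555 and 465 CPM in Fshb(+/-), again without overlap (-3.34 ± 0.44, adjusted p = 0.0025). Inha, which encodes the alpha subunit that turns these dimers into inhibins, had 2062, 2794 and 2271 CPM in Fshb(-/-) and 1668, 1323 and 1393 CPM in Fshb(+/-). In WT it had 1944, 2870 and 2782 CPM, so that Fshb(+/-) was the group below both others. Against Fshb(+/-) Inha rose by 0.70 ± 0.19 (adjusted p = 0.033), a call that ended without any 1 library except Fshb(+/-) replicate 1 (adjusted p up to 0.097). Tgfbr3, the inhibin co-receptor betaglycan, was higher by 0.62 ± 0.17 (adjusted p = 0.036), which ended without any 1 library except Fshb(-/-) replicate 2 (up to 0.12). Over the 9 tested genes of inhibins, activins and follistatins, 2 were higher and 2 lower, with a median log2 fold change of -0.19. In whole ovary RNA, fewer cells of a type and less RNA per cell cannot be told apart, here and below.

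**Figure D3:**
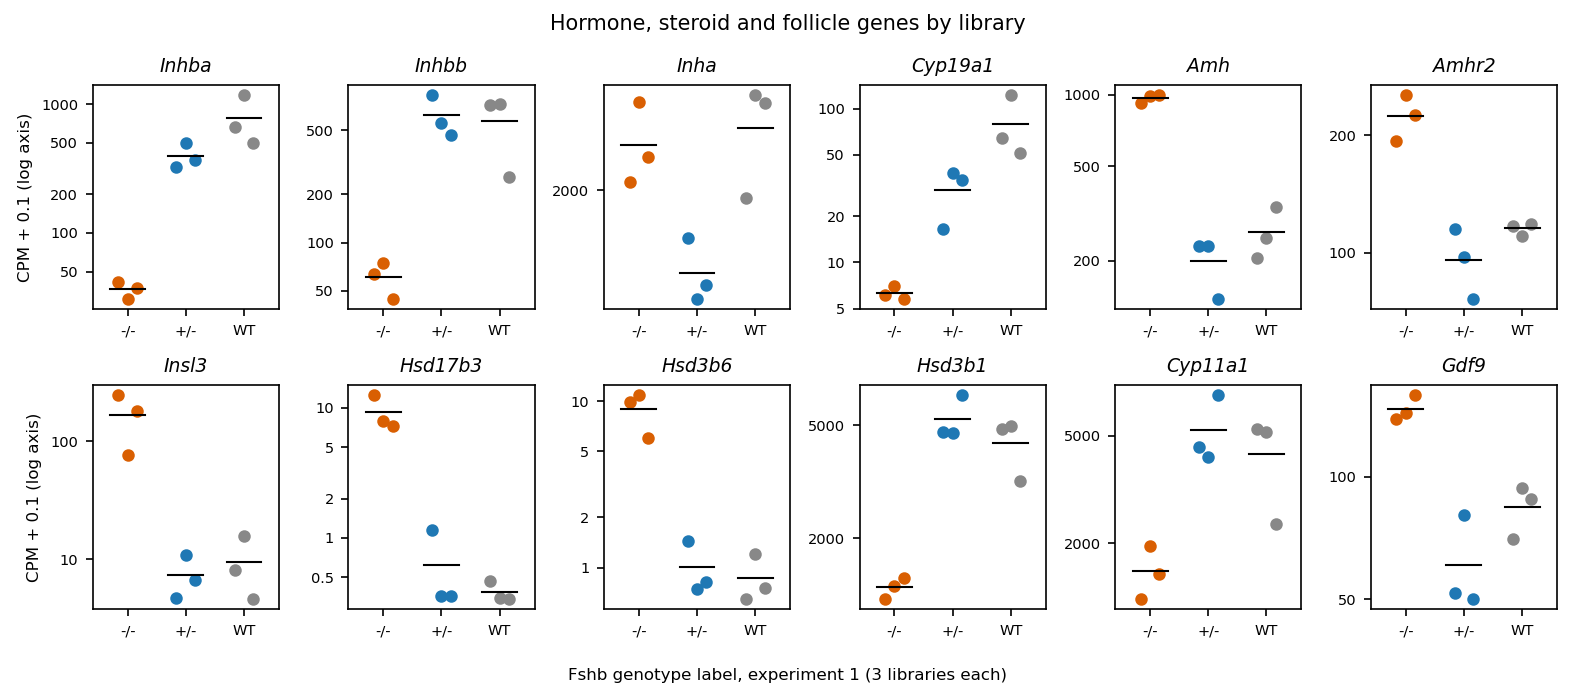
Each point is 1 library, with CPM + 0.1 on a log axis and libraries labelled Fshb(-/-), Fshb(+/-) and WT from left to right (3 each), and black lines mark group means. Inhba, Inhbb, Cyp19a1, Hsd3b1 and Cyp11a1 are lower, and Amh, Amhr2, Insl3, Hsd17b3, Hsd3b6 and Gdf9 higher, in every Fshb(-/-) library than in every Fshb(+/-) library.

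Granulosa genes of small growing follicles were higher in the libraries labelled Fshb(-/-), where 7 of 16 tested members of the granulosa and follicle growth list rose and none fell (median log2 fold change 0.37). Amh (chromosome 10, 80805243 to 80807648, plus strand), the anti-Mullerian hormone gene of small follicles, had 926, 985 and 1000.3 CPM in Fshb(-/-), against 231, 231 and 138 CPM in Fshb(+/-) and 206, 248 and 337 CPM in WT. Fshb(-/-) libraries agreed within a narrow range, and all lay above all others (2.28 ± 0.24 against Fshb(+/-), adjusted p = 0.00071). Its receptor gene Amhr2 had 194, 254 and 225 CPM in Fshb(-/-) and 115, 97.2 and 75.9 CPM in Fshb(+/-) (1.22 ± 0.16, adjusted p = 0.0017). Esr2, the estrogen receptor beta of granulosa cells, was at 197 ± 23.96 CPM in Fshb(-/-) and 81.4 ± 8.82 CPM in Fshb(+/-) (SD, n = 3 each), a rise of 1.27 ± 0.15 (adjusted p = 0.0012). Slc18a2, a vesicular monoamine transporter, was at 245 ± 23.96 CPM in Fshb(-/-) and 101 ± 30.7 CPM in Fshb(+/-), a rise of 1.28 ± 0.21 (adjusted p = 0.0046). All of these calls were kept when any 1 library was left out. The summed level of the list was 6420 to 6815 CPM in Fshb(-/-) and 4514 to 4834 CPM in Fshb(+/-).

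The receptor for the missing hormone was itself measured. Fshr had 55.9, 44.1 and 38.7 CPM in the libraries labelled Fshb(-/-), against 19.9, 22.5 and 23.4 CPM in those labelled Fshb(+/-) and 22.8, 45.2 and 25.5 CPM in WT. It rose by 1.08 ± 0.25 (adjusted p = 0.021), and the call ended without Fshb(-/-) replicate 1 or 2 or Fshb(+/-) replicate 1 or 2 (up to 0.078). Lhcgr, the LH receptor gene, had 595, 514 and 739 CPM in Fshb(-/-) and 441, 610.4 and 1007 CPM in Fshb(+/-), with overlap, and did not pass (-0.16 ± 0.36, adjusted p = 0.8). Without Fshb(+/-) replicate 3 its value was 0.23. Of 14 tested genes of the gonadotropin receptor and cyclic AMP list, 3 were higher and 1 was lower (median -0.14). Besides Fshr the higher genes were Foxo1 and Prkar2b. Foxo1, a transcription factor that the FSH signal restrains in granulosa cells, had 807, 633 and 646 CPM in Fshb(-/-) and 331, 382 and 389.9 CPM in Fshb(+/-) (0.92 ± 0.14, adjusted p = 0.0033). In WT it had 581, 557 and 678 CPM. Prkar2b, a regulatory subunit of protein kinase A, had 723, 763 and 751 CPM in Fshb(-/-) and 389, 437 and 324 CPM in Fshb(+/-) (0.96 ± 0.18, adjusted p = 0.0081). In WT it had 544, 826 and 822 CPM. For both genes every WT library lay above every Fshb(+/-) library. Sgk1, a kinase that FSH induces in granulosa cells and that is also high in luteal cells, fell, with 21.6, 32.03 and 27.8 CPM in Fshb(-/-) and 289, 293 and 369 CPM in Fshb(+/-). Its log2 fold change was -3.55 ± 0.71 (adjusted p = 0.015), and the call ended without Fshb(-/-) replicate 1 or 3 (up to 0.064). In WT it had 233, 258 and 28.4 CPM, so that 1 WT library was at the level of Fshb(-/-).

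Promoters of named genes were searched for sites that cyclic AMP response factors and the steroidogenic factor family NR5A are known to bind. RefSeq windows of 300 bases, 250 before to 50 after a gene's start (GRCm38.p6), were matched for 85 of 125 named genes. The letters TGACGTCA (CRE) and CAAGGTCA (NR5A) were sought on both strands, with the palindromic estrogen and androgen response elements by name. CRE letters were in 2.16% of 1482 windows of genes called higher, 1.41% of 1345 windows of genes called lower and 2.71% of all 15446 windows, and NR5A letters in 0.877%, 1.86% and 1.12% of them, in the same order. The estrogen element was in 2 and the androgen element in 1 of all 15446 windows. Among named genes, 4 held a match. Windows of Amhr2, Slc18a2 and the imprinted gene Zdbf2, which rose, and of 2 of the Sgk1 starts, the gene that fell, are shown because their matches are to these sites. Capitals mark the match, and all 5 windows are on the plus strand: chr15:102445117-102445416 (Amhr2), chr19:59260628-59260927 (Slc18a2), chr1:63273019-63273318 (Zdbf2), chr10:21978422-21978721 and chr10:21985854-21986153 (Sgk1).
Amhr2, NR5A: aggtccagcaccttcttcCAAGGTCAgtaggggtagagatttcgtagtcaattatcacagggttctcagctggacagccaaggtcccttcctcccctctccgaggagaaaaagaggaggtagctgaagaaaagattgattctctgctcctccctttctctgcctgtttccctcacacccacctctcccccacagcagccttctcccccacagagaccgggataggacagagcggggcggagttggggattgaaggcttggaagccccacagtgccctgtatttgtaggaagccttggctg
Slc18a2, CRE: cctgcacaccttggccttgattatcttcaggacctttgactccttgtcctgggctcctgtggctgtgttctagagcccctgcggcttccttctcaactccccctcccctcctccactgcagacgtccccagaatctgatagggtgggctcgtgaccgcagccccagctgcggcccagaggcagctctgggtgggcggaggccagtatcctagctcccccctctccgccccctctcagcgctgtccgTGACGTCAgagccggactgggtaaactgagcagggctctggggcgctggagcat
Zdbf2, CRE: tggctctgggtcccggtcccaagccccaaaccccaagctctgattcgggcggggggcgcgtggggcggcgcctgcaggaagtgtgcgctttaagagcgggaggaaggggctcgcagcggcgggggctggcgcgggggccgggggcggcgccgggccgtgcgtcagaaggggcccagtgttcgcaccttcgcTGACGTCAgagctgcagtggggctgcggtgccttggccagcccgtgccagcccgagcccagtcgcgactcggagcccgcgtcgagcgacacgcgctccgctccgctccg
Sgk1, NR5A on the other strand: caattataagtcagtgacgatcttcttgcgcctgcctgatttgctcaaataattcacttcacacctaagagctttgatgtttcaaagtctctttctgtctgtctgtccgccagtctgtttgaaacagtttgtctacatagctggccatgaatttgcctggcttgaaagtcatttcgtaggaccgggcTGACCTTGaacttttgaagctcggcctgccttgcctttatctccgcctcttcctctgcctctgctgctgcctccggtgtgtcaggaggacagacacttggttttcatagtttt
Sgk1, NR5A: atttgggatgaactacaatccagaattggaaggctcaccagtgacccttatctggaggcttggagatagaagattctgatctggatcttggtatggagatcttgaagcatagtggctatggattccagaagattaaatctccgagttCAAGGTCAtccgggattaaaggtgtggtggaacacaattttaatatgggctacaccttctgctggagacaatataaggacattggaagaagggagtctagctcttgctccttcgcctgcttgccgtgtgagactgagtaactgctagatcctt
The Amhr2 match lay 232 to 225 bases before the start, the Slc18a2 match spanned it, from 4 bases before to 4 after, the Zdbf2 match lay 59 to 52 bases before it, and the Sgk1 matches lay 63 to 56 and 103 to 96 bases before their starts. A further Sgk1 start held the androgen element, 189 to 175 bases before it. A match of letters describes the window and no binding was measured.

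The transcript of the estrogen-making enzyme fell. Cyp19a1 (chromosome 9, 54165937 to 54268110, minus strand), which encodes aromatase, had 5.998, 6.89 and 5.65 CPM in the libraries labelled Fshb(-/-), against 16.3, 37.8 and 34.2 CPM in those labelled Fshb(+/-) and 64.2, 123 and 51.7 CPM in WT. The groups did not overlap (-2.25 ± 0.41 against Fshb(+/-), adjusted p = 0.0094). Esr1, the estrogen receptor alpha gene of theca, stroma and surface epithelium, was at 39.9, 31 and 42.1 CPM in Fshb(-/-) and 70.6, 63.9 and 139.7 CPM in Fshb(+/-). It fell (-1.28 ± 0.28, adjusted p = 0.018), a call that ended without any 1 Fshb(-/-) library (up to 0.07), and the value was -0.83 without Fshb(+/-) replicate 3. The glucocorticoid receptor gene Nr3c1 was lower (-0.62 ± 0.15, adjusted p = 0.024) until Fshb(-/-) replicate 1 or Fshb(+/-) replicate 2 or 3 was left out (up to 0.067). Of 11 tested genes of estrogen synthesis and steroid receptors, 1 was higher (Esr2) and these 3 were lower, with a median of -0.62.

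Enzymes of pregnenolone and progesterone synthesis were lower, while enzyme genes typical of testicular Leydig cells were higher, in the libraries labelled Fshb(-/-). Hsd3b1, which makes progesterone from pregnenolone, had 1224, 1359 and 1458 CPM in Fshb(-/-) and 4736, 4678 and 6389.6 CPM in Fshb(+/-) (-1.97 ± 0.21, adjusted p = 0.00071). Cyp11a1, the side-chain cleavage enzyme that makes pregnenolone from cholesterol, had 1246, 1964 and 1543 CPM in Fshb(-/-) and 4554, 4153 and 7077 CPM in Fshb(+/-). It fell without overlap (-1.73 ± 0.34, adjusted p = 0.011), and the call ended without Fshb(-/-) replicate 1 (0.053). Star, whose protein carries cholesterol into mitochondria, had 162, 229.6 and 187 CPM in Fshb(-/-) and 1682, 361 and 2821 CPM in Fshb(+/-). The Fshb(+/-) values span a wide range and the difference did not pass (-3.07 ± 0.97, adjusted p = 0.067). Hsd3b6, the isoenzyme of adult Leydig cells in the mouse testis, had 9.75, 10.8 and 5.9 CPM in Fshb(-/-) and 1.35, 0.647 and 0.716 CPM in Fshb(+/-) (3.27 ± 0.41, adjusted p = 0.0014). Hsd17b3, which makes testosterone in the testis, had 12.5, 7.84 and 7.13 CPM in Fshb(-/-) and 1.04, 0.259 and 0.260 CPM in Fshb(+/-) (4.11 ± 0.53, adjusted p = 0.0017). Of 13 tested genes of this list 2 were higher and 5 lower, with a median of -0.92. The lower count was 1 without Fshb(-/-) replicate 1, 2 without replicate 3 and 3 without replicate 2 of that group, and 3 to 6 without any 1 Fshb(+/-) library.

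Of 15 tested theca and Leydig type genes 6 rose and 1 fell (median 0.68). The 1 that fell was Srd5a1, which encodes a steroid 5-alpha-reductase (-0.91 ± 0.27, adjusted p = 0.0496), a call that ended without any 1 library except Fshb(+/-) replicate 3 (up to 0.14). Insl3 (chromosome 8, 71689214 to 71690575, plus strand), a relaxin-family peptide gene of theca and Leydig cells, had 247, 76 and 178 CPM in the libraries labelled Fshb(-/-), against 4.59, 10.8 and 6.57 CPM in those labelled Fshb(+/-) and 7.99, 15.8 and 4.51 CPM in WT. Although Fshb(-/-) libraries differed among themselves, the lowest was above every other library (4.51 ± 0.63, adjusted p = 0.0037). Tcf21, a transcription factor of gonadal interstitial cells, rose by 1.17 ± 0.19 (adjusted p = 0.0046). Cyp17a1, the theca enzyme that makes androgens, had 807, 1593 and 819 CPM in Fshb(-/-) and 6.18, 183 and 214 CPM in Fshb(+/-), without overlap. Fshb(+/-) replicate 1 was far below the other 2, and the difference did not pass (2.998 ± 1.05, adjusted p = 0.09).

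Of 8 tested genes of the renin-angiotensin system 4 rose and 1 fell (median 0.58). Ren1, which encodes renin, had 54.6, 39.7 and 39.6 CPM in the libraries labelled Fshb(-/-), against 5.45, 1.42 and 2.15 CPM in those labelled Fshb(+/-) and 1.63, 1.85 and 2.26 CPM in WT (3.88 ± 0.43 against Fshb(+/-), adjusted p = 0.0011). Ace, the converting enzyme, had 293, 192 and 255 CPM in Fshb(-/-) and 55.8, 45.6 and 51.6 CPM in Fshb(+/-) (2.27 ± 0.19, adjusted p = 0.00032). Agtr2, an angiotensin receptor found in atretic follicles of the rat, rose by 1.19 ± 0.24 (adjusted p = 0.011). Enpep, an aminopeptidase that cleaves angiotensin, was lower (-0.77 ± 0.19, adjusted p = 0.025), a call that ended without any 1 Fshb(-/-) library or Fshb(+/-) replicate 2 (up to 0.086). The fourth gene that rose was Agt, angiotensinogen (1.10 ± 0.30, adjusted p = 0.039), a call that ended without any 1 library except Fshb(+/-) replicate 2 (up to 0.12).

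Oocyte transcripts were higher in the libraries labelled Fshb(-/-). Of 12 tested oocyte growth factor, zona and transcription factor genes 10 were higher and none lower (median 1.28), and of 17 maternal effect genes 16 were higher (median 1.42). Gdf9, a growth factor that oocytes send to granulosa cells, had 139, 143 and 159 CPM in Fshb(-/-), against 51.8, 80.5 and 49.96 CPM in Fshb(+/-) and 70.2, 93.8 and 88.3 CPM in WT (1.27 ± 0.19 against Fshb(+/-), adjusted p = 0.0033). Its partner Bmp15 had 63.9, 51.1 and 66.3 CPM in Fshb(-/-) and 22.2, 28.2 and 22.1 CPM in Fshb(+/-) (1.32 ± 0.14, adjusted p = 0.00079). Zp2, a zona pellucida glycoprotein gene, rose by 1.47 ± 0.18 (adjusted p = 0.0012) and Oosp1, an oocyte-secreted protein gene, by 1.63 ± 0.16 (adjusted p = 0.00057). Taf4b, a TFIID subunit needed for oocyte development in mice, rose by 1.57 ± 0.16 (adjusted p = 0.00071). Among maternal effect genes, Dppa3, which protects maternal DNA methylation in the zygote, had 23.4, 28 and 24.3 CPM in Fshb(-/-) and 8.02, 9.19 and 7.61 CPM in Fshb(+/-) (1.61 ± 0.14, adjusted p = 0.00043). Bcl2l10, Btg4 and Tcl1 rose by 1.42, 1.55 and 1.56. These named genes lay between 1.27 and 1.63 on the log2 scale, and each call was kept when any 1 library was left out. Apart from Gdf9 they were named for having the smallest p of their lists, so neither trait describes the lists. The summed level of the maternal effect list was 1180 to 1388 CPM in Fshb(-/-) and 441 to 647 CPM in Fshb(+/-).

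Cell cycle genes were higher in part. Of 24 tested members 13 were higher and 2 lower (median 0.63), but 3 were higher without Fshb(-/-) replicate 1, 3 without replicate 2, 7 without replicate 3, 5 without Fshb(+/-) replicate 2 and 16 without Fshb(+/-) replicate 1. Bub1b, a spindle checkpoint kinase that oocytes also express, had 114, 100.2 and 97.97 CPM in the libraries labelled Fshb(-/-) and 55.4, 47.1 and 37.99 CPM in those labelled Fshb(+/-) (1.15 ± 0.14, adjusted p = 0.0013). The mitotic kinase Aurka rose by 1.02 ± 0.20 (adjusted p = 0.0097). Birc5, the chromosomal passenger survivin, rose by 1.001 ± 0.22 (adjusted p = 0.015), which ended without Fshb(-/-) replicate 2 (0.054). Cdkn1b, a cell cycle inhibitor that is high in luteal cells, had 105, 90 and 104 CPM in Fshb(-/-) and 231, 181 and 254 CPM in Fshb(+/-) (-1.15 ± 0.18, adjusted p = 0.0038). Its relative Cdkn1c fell as well (-0.99 ± 0.25, adjusted p = 0.027), which ended without any 1 Fshb(-/-) library or Fshb(+/-) replicate 2 (up to 0.086).

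Genes of the corpus luteum were lower in the libraries labelled Fshb(-/-), with 7 of 15 tested lower, none higher and a median of -1.97. The groups did not overlap for 13 of the 15, where 37.7% of all tested genes showed no overlap. Runx2, a transcription factor induced as follicles luteinize, had 3.51, 3.66 and 5.72 CPM in Fshb(-/-), against 195, 187 and 293 CPM in Fshb(+/-) (-5.70 ± 1.09, adjusted p = 0.012), and the call ended without Fshb(-/-) replicate 1 (0.056). Ptgfr, the prostaglandin F receptor through which luteal regression is triggered, had 2.79, 3.44 and 7.68 CPM in Fshb(-/-) and 118, 415 and 1051 CPM in Fshb(+/-). It was lower by a log2 fold change of -6.82 ± 1.63 (adjusted p = 0.028), which ended without any 1 library except Fshb(+/-) replicate 1 (up to 0.097). The WNT ligand gene Wnt10b had 0.424, 0.440 and 1.04 CPM in Fshb(-/-) and 113, 206 and 169 CPM in Fshb(+/-) (-7.96 ± 1.56, adjusted p = 0.013), and its call ended without Fshb(-/-) replicate 1 (0.06). WT replicate 3 was near Fshb(-/-) in all of these genes, with 7.36 CPM of Runx2, 7.30 CPM of Ptgfr and 1.54 CPM of Wnt10b, while the other WT libraries held at least 83.5 CPM of each. That library enters here only through the shared estimate of spread. Summed over the list, Fshb(-/-) held 4735 to 5557 CPM and Fshb(+/-) 14801 to 26444 CPM. The count of lower genes was 1 without Fshb(-/-) replicate 1, 3 without replicate 2 or 3 of that group, and 4 without Fshb(+/-) replicate 3.

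**Figure D4:**
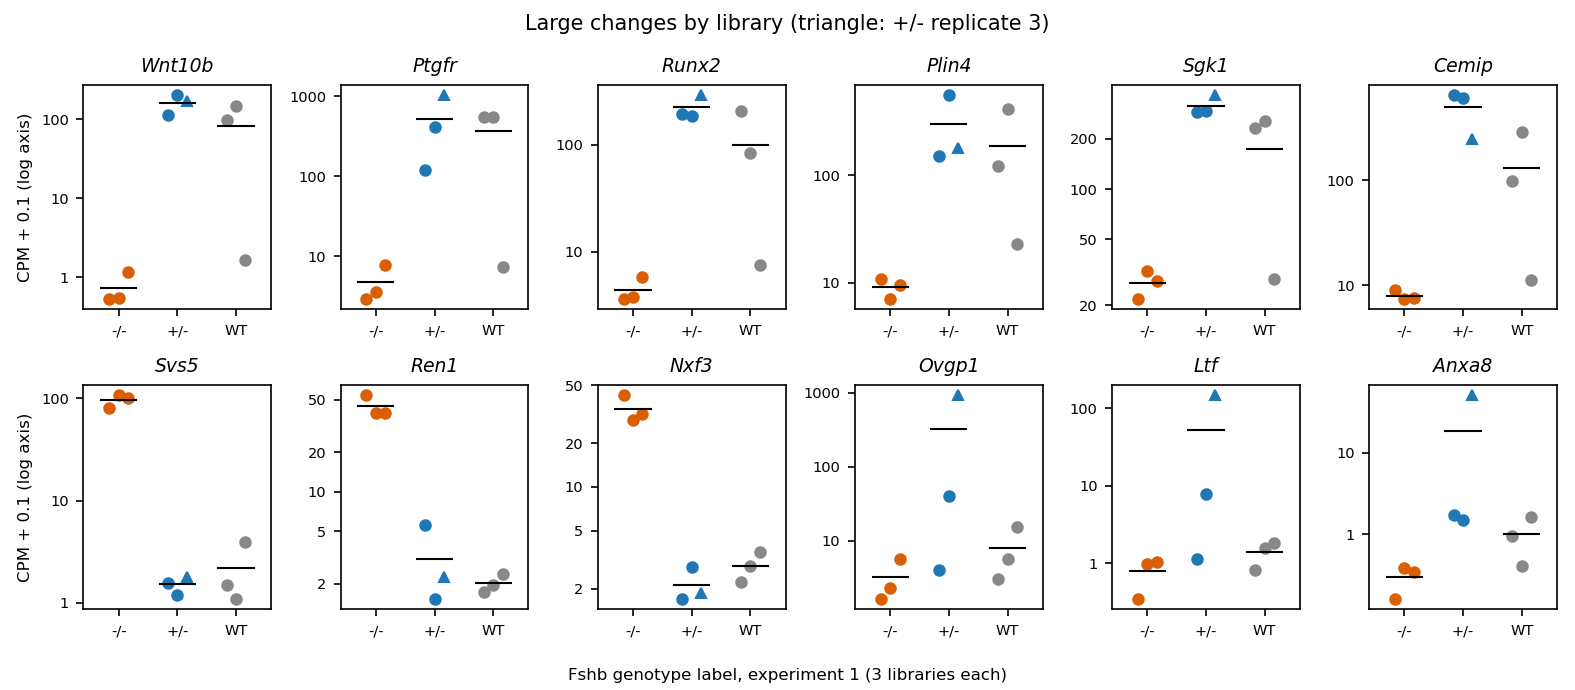
Each point is 1 library, with CPM + 0.1 on a log axis and libraries labelled Fshb(-/-), Fshb(+/-) and WT from left to right (3 each); black lines mark group means and the triangle is Fshb(+/-) replicate 3. Wnt10b, Ptgfr, Runx2, Plin4, Sgk1 and Cemip are low in all Fshb(-/-) libraries and in WT replicate 3, whereas the group means of Ovgp1, Ltf and Anxa8 in Fshb(+/-) rest on the triangle.

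Lipid storage and transport followed the same direction, with 6 of 15 tested lower and none higher (median -0.68). Plin4 and Plin5 encode lipid droplet coat proteins. Plin4 had 10.7, 6.96 and 9.53 CPM in the libraries labelled Fshb(-/-) and 152, 563 and 179 CPM in those labelled Fshb(+/-) (-5.03 ± 1.09, adjusted p = 0.02), and Plin5 was lower (-4.32 ± 0.89, adjusted p = 0.015). The Plin4 call ended without any 1 Fshb(-/-) library (up to 0.071) and the Plin5 call without replicate 1 or 3 (up to 0.069). Abcg1, a cholesterol exporter, had 10.2, 9.38 and 14.9 CPM in Fshb(-/-) and 31.1, 61.2 and 38.5 CPM in Fshb(+/-) (-1.92 ± 0.27, adjusted p = 0.0026), and kept its call without any 1 library. Lipe, the hormone-sensitive lipase, was at -0.87 (adjusted p = 0.039), which ended without any 1 library except Fshb(+/-) replicate 2 (up to 0.11). The lower count of the list was 1 without Fshb(-/-) replicate 1 or 3, 3 without replicate 2, 4 without Fshb(+/-) replicate 1 or 2 and 3 without Fshb(+/-) replicate 3. For cholesterol synthesis no gene of 16 passed by edgeR, DESeq2 or limma voom and 1 had an unadjusted p under 0.05; the median of -1.10 became -0.14 without Fshb(+/-) replicate 3.

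In the WNT pathway 10 of 23 tested genes were lower and 2 higher (median -0.69). The higher genes were the co-receptor gene Lrp5 (0.41 ± 0.10, adjusted p = 0.027) and the transcription factor gene Tcf7 (0.61 ± 0.17, adjusted p = 0.037), and without any 1 library 0 or 1 gene of the list was called higher. Fzd4, a WNT receptor needed for luteal formation in mice, had 37.2, 33.6 and 39.4 CPM in the libraries labelled Fshb(-/-) and 81.5, 89.1 and 106 CPM in those labelled Fshb(+/-) (-1.33 ± 0.15, adjusted p = 0.00093). Rnf43, which removes WNT receptors from the cell surface, had 2.42, 2.79 and 2.83 CPM in Fshb(-/-) and 7.47, 10.2 and 9.56 CPM in Fshb(+/-) (-1.76 ± 0.24, adjusted p = 0.0022). Sfrp2, a secreted WNT antagonist, had 0.485, 0.513 and 0.369 CPM in Fshb(-/-) and 33.4, 22.7 and 5.07 CPM in Fshb(+/-). Its log2 fold change was -5.46 ± 0.73 (adjusted p = 0.0024), and the lowest Fshb(+/-) value was that of replicate 3. Wnt5a, a ligand of the non-canonical branch, fell (-1.05 ± 0.15, adjusted p = 0.0024). These 4 calls were kept without any 1 library, while the count of lower genes was 4 without Fshb(-/-) replicate 1, 6 without replicate 2 or 3 of that group and 8 to 9 without any 1 Fshb(+/-) library.

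In the BMP pathway 2 of 17 tested genes were higher and 1 lower (median 0.15). Bmpr1b, a receptor on granulosa cells known from fecundity mutations in sheep, had 205, 148 and 174 CPM in the libraries labelled Fshb(-/-) and 68.7, 75.4 and 87.6 CPM in those labelled Fshb(+/-) (1.19 ± 0.21, adjusted p = 0.0066). The ligand gene Bmp5, at 1.92 ± 0.354 CPM in Fshb(-/-) and 0.907 ± 0.231 CPM in Fshb(+/-), was higher by 1.07 ± 0.30 (adjusted p = 0.039), which ended without Fshb(-/-) replicate 1 or 3 or Fshb(+/-) replicate 2 or 3 (up to 0.13). Grem1, a BMP antagonist of granulosa cells, had 2.12, 1.03 and 2.34 CPM in Fshb(-/-), 3.79, 16.3 and 6.24 CPM in Fshb(+/-) and 36.2, 90.1 and 78.04 CPM in WT. The Fshb(+/-) libraries lay between the other groups, and the fall of -2.24 ± 0.63 (adjusted p = 0.046) ended without any 1 library except Fshb(+/-) replicate 1 (up to 0.12).

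In the insulin-like growth factor (IGF) system 4 of 13 tested genes were lower and 1 higher (median -0.06). The higher gene was Igf1, the growth factor itself (0.57 ± 0.16, adjusted p = 0.042), whose call ended without any 1 library except Fshb(+/-) replicate 1 (up to 0.12). Igfbp4, which encodes an IGF-binding protein, had 93.97, 135 and 133 CPM in the libraries labelled Fshb(-/-) and 499, 327 and 316 CPM in those labelled Fshb(+/-) (-1.66 ± 0.24, adjusted p = 0.0027). Igf2 had 10.6, 10.6 and 10.3 CPM in Fshb(-/-) and 16.5, 26.7 and 21.7 CPM in Fshb(+/-) (-1.04 ± 0.20, adjusted p = 0.0098). Igfbp3 was lower (-1.62 ± 0.35, adjusted p = 0.017), which ended without Fshb(-/-) replicate 1 or 3 (up to 0.075). Stc1, which inhibits the protease that frees IGF from Igfbp4, had 11.5, 13.8 and 15.3 CPM in Fshb(-/-) and 85.8, 338 and 112 CPM in Fshb(+/-) (-3.72 ± 0.77, adjusted p = 0.016), and its call ended without any 1 Fshb(-/-) library (up to 0.067).

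Endothelial transcripts were lower, with 11 of 17 tested genes of endothelium and angiogenic factors lower, 1 higher and a median of -0.63. Cdh5, the endothelial cadherin, had 103, 109 and 116 CPM in the libraries labelled Fshb(-/-) and 189.5, 189 and 171 CPM in those labelled Fshb(+/-) (-0.75 ± 0.09, adjusted p = 0.0014). Nos3, the endothelial nitric oxide synthase, fell (-1.15 ± 0.17, adjusted p = 0.0028) and Kdr, the main receptor for vascular endothelial growth factor, fell too (-0.76 ± 0.12, adjusted p = 0.0035). Angpt2, an angiopoietin that destabilises vessels, was the 1 member that rose, with 108, 144 and 132 CPM in Fshb(-/-) and 24.7, 33.99 and 39.5 CPM in Fshb(+/-) (1.97 ± 0.21, adjusted p = 0.00078). The 4 calls were kept without any 1 library, and the count of lower genes was 7 without Fshb(-/-) replicate 1 and 8 to 11 without any 1 other library. Summed, the list held 766 to 908 CPM in Fshb(-/-) and 1137 to 1296 CPM in Fshb(+/-).

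Matrix genes fell in 4 of 16 cases and rose in none (median -0.55). Fn1, fibronectin, had 113, 83.3 and 124 CPM in the libraries labelled Fshb(-/-) and 438, 406 and 444 CPM in those labelled Fshb(+/-) (-2.005 ± 0.16, adjusted p = 0.00026). Lum, a collagen-binding proteoglycan of stroma, had 24.8, 34.96 and 34.6 CPM in Fshb(-/-) and 163, 102 and 93.3 CPM in Fshb(+/-) (-1.92 ± 0.23, adjusted p = 0.0012). Spp1, osteopontin, was lower (-2.53 ± 0.50, adjusted p = 0.012; 0.05 without Fshb(-/-) replicate 3), and so was Tnc, tenascin (-2.43 ± 0.58, adjusted p = 0.026), a call that was lost whichever of the 6 libraries was left out (up to 0.089). The count of lower genes was 2 without Fshb(-/-) replicate 3 and 7 without Fshb(+/-) replicate 3. Proteases and their inhibitors moved both ways, 3 of 14 higher and 1 lower (3 lower without Fshb(+/-) replicate 3). Adamts5, a protease that cleaves versican and aggrecan, had 111, 98.1 and 105 CPM in Fshb(-/-) and 24.2, 40.7 and 44.2 CPM in Fshb(+/-) (1.53 ± 0.27, adjusted p = 0.0075), and its relative Adamts15 rose by 1.505 ± 0.23 (adjusted p = 0.0036). Of the inhibitors, Timp3 fell (-0.94 ± 0.18, adjusted p = 0.0087) and Timp2 rose (0.44 ± 0.11, adjusted p = 0.027), a call that ended without Fshb(-/-) replicate 1 or 3 or Fshb(+/-) replicate 1 or 3 (up to 0.096).

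Of 14 tested genes of ovulation and cumulus expansion 3 were higher and none lower (median -0.09). Rgs2, a regulator of G protein signalling, had 645, 707 and 598 CPM in the libraries labelled Fshb(-/-) and 248, 238 and 224 CPM in those labelled Fshb(+/-) (1.46 ± 0.15, adjusted p = 0.00061). Has2, the hyaluronan synthase of the expanding cumulus, had 4.79, 2.64 and 5.47 CPM in Fshb(-/-) and 0.612, 0.647 and 0.520 CPM in Fshb(+/-) (2.84 ± 0.43, adjusted p = 0.0033). Tnfaip6, which cross-links that hyaluronan, was at 2.37 ± 0.0482 CPM in Fshb(-/-) and 0.972 ± 0.337 CPM in Fshb(+/-) (1.28 ± 0.32, adjusted p = 0.028), a call that ended without any 1 Fshb(-/-) library or Fshb(+/-) replicate 2 (up to 0.085). Has2 and Tnfaip6 stayed under 6 CPM in every library of experiment 1.

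Circadian clock genes were lower in 9 of 18 cases and higher in 3 (median -1.06). Nr1d1, the repressor REV-ERB alpha, had 71.1, 69.5 and 69.3 CPM in the libraries labelled Fshb(-/-), against 246, 192 and 182 CPM in those labelled Fshb(+/-) and 140.5, 131 and 142 CPM in WT. Fshb(-/-) libraries were nearly equal and lay below all others (-1.56 ± 0.12 against Fshb(+/-), adjusted p = 0.00026). Dbp, a clock output transcription factor, had 37.99, 36.3 and 35.7 CPM in Fshb(-/-) and 268, 131 and 182 CPM in Fshb(+/-) (-2.40 ± 0.28, adjusted p = 0.0012). Nr1d2 fell (-1.06 ± 0.16, adjusted p = 0.0034). These calls were kept without any 1 library. The labels give no time of day for any library.

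Genes of gonadal sex identity changed in 4 of 12 cases, 3 higher and 1 lower (median -0.02). Cldn11, a tight junction claudin of Sertoli cells in the testis, had 56.3, 69.04 and 72.3 CPM in the libraries labelled Fshb(-/-) and 11.7, 10.7 and 12.3 CPM in those labelled Fshb(+/-) (2.505 ± 0.13, adjusted p = 3.3e-05). Wt1, a transcription factor of granulosa and surface cells, rose by 0.58 ± 0.12 (adjusted p = 0.012) and Sox8, a relative of the testis factor Sox9, by 1.25 ± 0.27 (adjusted p = 0.015; 0.062 without Fshb(-/-) replicate 3). Gata6, a factor of granulosa, theca and luteal cells, fell (-0.80 ± 0.17, adjusted p = 0.013). Seminal vesicle secretory genes rose by the largest folds among the lists. Svs5 had 80.4, 109 and 101 CPM in Fshb(-/-), against 1.47, 1.101 and 1.69 CPM in Fshb(+/-) and 1.39, 0.989 and 3.86 CPM in WT (6.08 ± 0.45 against Fshb(+/-), adjusted p = 0.00028). Svs6 had 282 counts in the sum of Fshb(-/-) libraries and 1 count in that of Fshb(+/-), a ratio of 290 per total count (95% counting interval 51.6 to 11485). Of 8 genes of that list 2 were tested, both higher; the other 6 did not reach the count filter, and Svs4 and Spinkl were at 0 in all 6 libraries.

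Of the 12 genes with the largest rises, taken from called genes with a mean of at least 5 CPM and no overlap, without pseudogenes, predicted gene models and clone names, 11 are given here, Svs5, Ache, Aqp2, Insl3, Nxf3, Ren1, Zdbf2, Spon1, C7, Slc9a2 and Lcn2. Spon1, a secreted matrix protein gene, was the most abundant of them, with 739, 763 and 764 CPM in the libraries labelled Fshb(-/-) and 40.9, 62.5 and 72.7 CPM in those labelled Fshb(+/-) (3.68 ± 0.27, adjusted p = 0.00018). C7, a component of the terminal complement complex, had 98.8, 72.04 and 96.1 CPM in Fshb(-/-) and 10.7, 11.3 and 6.18 CPM in Fshb(+/-) (3.24 ± 0.29, adjusted p = 0.00049). Genes that are low or nearly absent in Fshb(+/-) ovary stood out by fold. Ache, acetylcholinesterase, had 7.63, 16.6 and 13.2 CPM in Fshb(-/-) and 0.490, 0.453 and 0.520 CPM in Fshb(+/-) (4.66 ± 0.64). Aqp2, a water channel of the kidney collecting duct, had 12.5, 13.8 and 9.22 CPM in Fshb(-/-) and 0.245, 0.324 and 0.911 CPM in Fshb(+/-) (4.57 ± 0.52). Nxf3, an X-linked gene of the RNA export factor family, had 43.02, 28.9 and 31.7 CPM in Fshb(-/-) and 1.59, 2.72 and 1.76 CPM in Fshb(+/-) (4.09 ± 0.28). The imprinted gene Zdbf2 and the sodium-proton exchanger gene Slc9a2 rose by 3.82 ± 0.34 and 3.09 ± 0.23. Of these 11 calls, 10 were kept without any 1 library. The exception, Lcn2, the iron-siderophore carrier lipocalin, had 75.7, 52.9 and 54.5 CPM in Fshb(-/-) and 2.08, 3.82 and 16.4 CPM in Fshb(+/-), where replicate 3 was the highest. It rose by 3.04 ± 0.76 (adjusted p = 0.032), a call that ended without any 1 Fshb(-/-) library or Fshb(+/-) replicate 1 or 2 (up to 0.09).

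The 12 with the largest falls by the same rule were Wnt10b, Pik3c2g, Ptgfr, Gpr141, Anxa8, Aoc1, Tnfrsf9, Onecut2, Ltf, Podnl1, Slc5a4b and Cemip, and none of these calls was kept in all 6 fits that leave out 1 library. The WT libraries share the estimate of spread in these fits. WT replicate 3 held 1.54 CPM of Wnt10b, 0.535 CPM of Onecut2 and 0.653 CPM of Tnfrsf9. The other WT libraries held at least 98.1, 12.7 and 18.8 CPM of them, in the same order. For Anxa8 and Ltf all WT libraries were at 1.72 CPM or less. With only the 6 libraries of both groups in the fit, the Anxa8 and Ltf calls were lost and the rest of the 12 were kept. No library was left out of that fit. The part of the WT spread in the calls lost without 1 library was therefore not tested. Cemip, a hyaluronan-degrading protein gene, had 8.85, 7.26 and 7.498 CPM in the libraries labelled Fshb(-/-) and 649, 605 and 246 CPM in those labelled Fshb(+/-) (-5.99 ± 1.12, adjusted p = 0.012; 0.05 without Fshb(-/-) replicate 1). Podnl1, a small leucine-rich repeat protein gene, had 0.424, 0.366 and 0.430 CPM in Fshb(-/-) and 7.65, 63.9 and 14.4 CPM in Fshb(+/-) (-6.10 ± 1.26, adjusted p = 0.017), and Slc5a4b, of the sugar transporter family, fell (-6.10 ± 1.21, adjusted p = 0.013). Gpr141, an orphan receptor gene, had 5 counts in the sum of Fshb(-/-) libraries and 514 in that of Fshb(+/-), so that Fshb(+/-) over Fshb(-/-) was 100.04 per total count (95% counting interval 42.6 to 309). The Podnl1, Slc5a4b and Gpr141 calls ended without any 1 Fshb(-/-) library (up to 0.067, 0.057 and 0.076). Onecut2, a transcription factor gene, had 0.242, 0.147 and 0.492 CPM in Fshb(-/-) and 14.01, 27.3 and 30.4 CPM in Fshb(+/-). Pik3c2g, a class II phosphoinositide kinase gene, had 0.848, 0.220 and 1.17 CPM in Fshb(-/-) and 80.6, 32.2 and 240.3 CPM in Fshb(+/-). Both calls (adjusted p = 0.04 for Onecut2 and 0.048 for Pik3c2g) were lost whichever of the 6 libraries was left out (up to 0.12 and 0.14). Tnfrsf9, a costimulatory receptor of T cells, was at -6.45 (adjusted p = 0.041), and ended without any 1 library except Fshb(+/-) replicate 1 (up to 0.12).

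Of these falls, 3 rested in large part on Fshb(+/-) replicate 3. Anxa8, an annexin gene of epithelia, had 0.0606, 0.293 and 0.246 CPM in the libraries labelled Fshb(-/-) and 1.65, 1.42 and 51.8 CPM in those labelled Fshb(+/-), and its log2 fold change of -6.49 (adjusted p = 0.041) was -2.92 (0.03) without replicate 3. Ltf, lactoferrin, an estrogen-responsive secretory protein of the mouse reproductive tract, had 0.242, 0.879 and 0.922 CPM in Fshb(-/-) and 1.04, 7.705 and 149 CPM in Fshb(+/-), with -6.27 (adjusted p = 0.049) against -2.67 (0.073) without it. Aoc1, diamine oxidase, had 0.121, 0 and 0.184 CPM in Fshb(-/-) and 1.04, 2.98 and 26.7 CPM in Fshb(+/-), with -6.48 (adjusted p = 0.042) against -4.13 (0.086) without it. These 3 calls also ended without any 1 Fshb(-/-) library (up to 0.13, 0.14 and 0.12), and that of Aoc1 without Fshb(+/-) replicate 2 as well. Oviduct genes were high in the same library. Ovgp1, the oviduct glycoprotein, had 1.51, 2.199 and 5.59 CPM in Fshb(-/-) and 3.86, 39.9 and 935 CPM in Fshb(+/-). Foxj1, the ciliated cell factor, had 0.363, 0.953 and 0.922 CPM in Fshb(-/-) and 0.306, 3.24 and 155 CPM in Fshb(+/-). Dnah5, a ciliary dynein, had 0.545, 0.220 and 0.430 CPM in Fshb(-/-) and 0.184, 2.46 and 198 CPM in Fshb(+/-), so that replicate 3 was far above all other libraries for each. None of the 3 passed (adjusted p = 0.053, 0.093 and 0.076). Rsph1, of the ciliary radial spoke, was the 1 of 8 tested oviduct genes called lower (-2.79, adjusted p = 0.043; -1.12 and 0.014 without replicate 3), and the call ended without any 1 Fshb(-/-) library (up to 0.12). The list had 4 genes called lower without Fshb(+/-) replicate 1, and its median was -3.25 with and -0.58 without replicate 3, and the part of oviduct tissue in other results was not tested.

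Markers of other cell types were described in the same way. Of 8 smooth muscle genes 0 passed by edgeR, and their median of -1.02 was -0.27 without Fshb(+/-) replicate 3. Ovarian surface epithelium genes were lower in 2 of 8 cases (median -0.59, summed level 192 to 311 CPM in the libraries labelled Fshb(-/-) and 240 to 426 CPM in those labelled Fshb(+/-)). These were Msln, mesothelin (-1.34 ± 0.28, adjusted p = 0.013), which ended without Fshb(-/-) replicate 1 or 3 (up to 0.058), and the mucin gene Muc16, with 12, 6.45 and 11 CPM in Fshb(-/-) and 24.2, 19.9 and 23.1 CPM in Fshb(+/-) (-1.19 ± 0.25, adjusted p = 0.014). Macrophage genes summed to 304 to 431 CPM in Fshb(-/-) and 479, 994 and 489 CPM in Fshb(+/-), with 1 of 11 higher and 1 lower (median -0.45). Lyz2, lysozyme, fell (-1.79 ± 0.46, adjusted p = 0.035), which ended without Fshb(-/-) replicate 1 or 3 or Fshb(+/-) replicate 2 or 3 (up to 0.1). Cd163, a scavenger receptor, rose by 1.45 ± 0.41 (adjusted p = 0.041), which ended without Fshb(-/-) replicate 2 or 3 or Fshb(+/-) replicate 1 or 3 (up to 0.14). Adipocyte genes summed to 38.1 to 46.7 CPM in Fshb(-/-) and 15.7 to 48.0 CPM in Fshb(+/-), and 2 of 4 were higher without Fshb(+/-) replicate 3. Erythrocyte genes summed to 212 to 229 CPM in Fshb(-/-) and 113 to 562 CPM in Fshb(+/-), and mitochondrial genome transcripts to 36238 to 44719.9 CPM in Fshb(-/-) and 36050.3 to 47071 CPM in Fshb(+/-). Of 7 pituitary genes 2 were tested, and Gh, Prl and Tshb were at 0 in all 6 libraries.

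The second experiment gave a comparison that shares no library with the first, libraries labelled Fshb(-/-) against libraries labelled rescue, 4 each, with 19.6 M to 23.7 M counts. There 5390 of 16871 tested genes passed (31.9%), 2731 higher (16.2%) and 2659 lower (15.8%) in Fshb(-/-). Of the 1568 genes higher against Fshb(+/-), 1539 were tested against the rescue, and 1099 were called higher there, 71.4% of the tested and 40.2% of the 2731. Of the 1360 lower genes, 1323 were tested and 942 were called lower, 71.2% of the tested and 35.4% of the 2659. Opposite calls numbered 4 among the higher and 18 among the lower genes. Over the 16316 genes tested in both, 76.5% had the same sign, Pearson's r of the log2 fold changes was 0.663 and Spearman's rho 0.658, across genes, which are not independent replicates. Log2 fold changes against the rescue were, for genes named above, Amh 1.56 ± 0.23, Insl3 6.03 ± 0.48, Hsd3b1 -1.54 ± 0.24, Hsd3b6 3.01 ± 0.45, Svs5 5.71 ± 0.28, Ren1 4.42 ± 0.39, Gdf9 0.86 ± 0.16 and Wnt10b -10.31 ± 0.40, all called (adjusted p of 0.0052 or less). Other genes named above were not called against the rescue. Among them were Fshr (0.10 ± 0.21, adjusted p = 0.76), Prkar2b (0.10 ± 0.11, 0.50), Esr1 (-0.37 ± 0.13, 0.055) and Nr3c1 (-0.10 ± 0.05, 0.16). Of the large falls, Anxa8 (0.35 ± 1.57, 0.89), Ltf (0.44 ± 1.51, 0.85) and Aoc1 (-1.25 ± 1.40, 0.54) did not pass there. Of the large rises, Ache (2.47 ± 0.89, 0.064) and Zdbf2 (2.27 ± 0.88, 0.091) did not pass there. A missing call alone does not show that the contrasts differ.

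The difference between both contrasts was tested gene by gene and passed for 163 of 18602 genes (0.876%), 57 with a higher and 106 with a lower value against Fshb(+/-) than against the rescue. The fall of Inhba was -6.65 ± 0.38 against the rescue, with 19.1, 6.67, 10.4 and 8.95 CPM in Fshb(-/-) and 1152, 1348, 873 and 1150.3 CPM in rescue libraries, and the contrasts differed (adjusted p = 0.0045). Cyp19a1 was at -5.26 ± 0.41 against the rescue, with 4.02, 2.19, 1.35 and 1.96 CPM in Fshb(-/-) and 102, 133, 59.6 and 66.8 CPM in the rescue, and differed as well (0.028). Both genes were thus lower against both groups and by a larger fold against the rescue. Clock genes did the reverse: Nr1d1 was at -0.07 ± 0.13 and Dbp at -0.31 ± 0.22 against the rescue, neither called there, and their contrasts differed (0.0041 and 0.02). Of the 18 clock genes 1 was lower and 3 were higher against the rescue. Muc16 rose against the rescue (1.02 ± 0.20, adjusted p = 0.0052) where it fell against Fshb(+/-), and the contrasts differed (0.0077). Inha did not pass against the rescue (-0.33 ± 0.14, adjusted p = 0.096), with an adjusted p of 0.045 for the difference. The plot of both experiments shows these genes away from the diagonal.

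**Figure D5:**
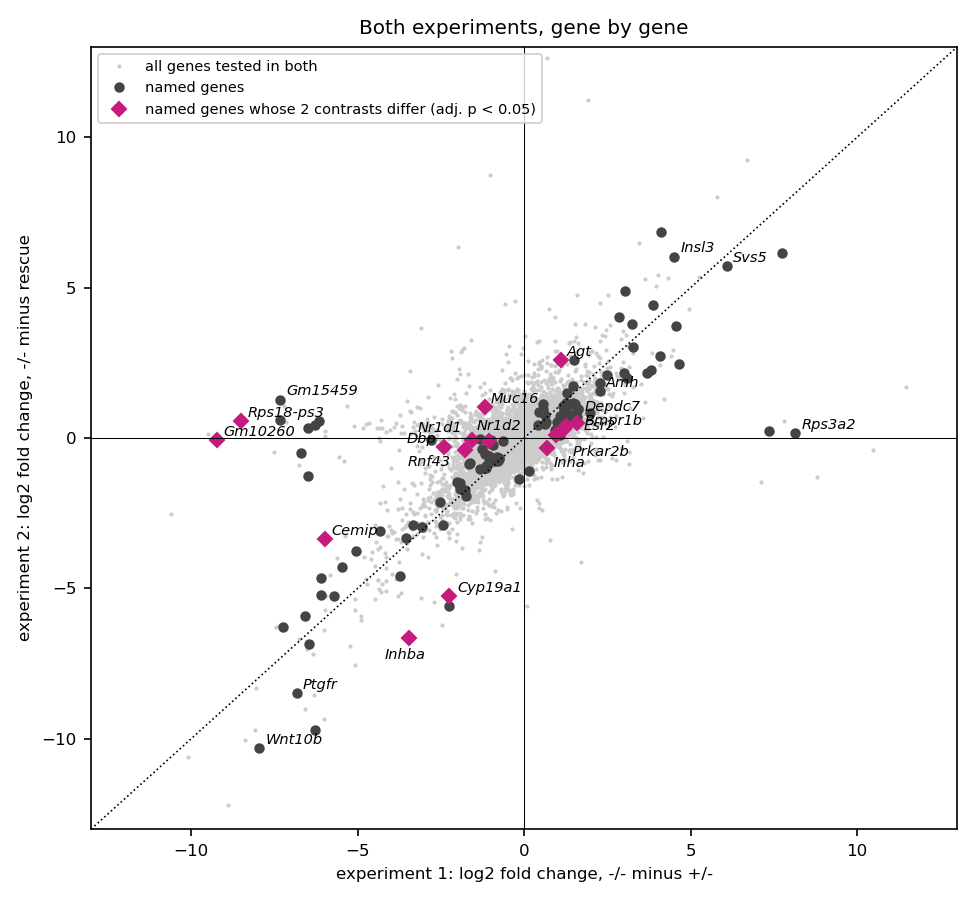
Log2 fold changes of libraries labelled Fshb(-/-) over Fshb(+/-) in experiment 1 (x axis, n = 3 each) and over the rescue in experiment 2 (y axis, n = 4 each); grey points are the 16316 genes tested in both, dark circles the named genes, and pink diamonds named genes whose contrasts differed at an adjusted p under 0.05. Inhba and Cyp19a1 lie below the dotted diagonal, Nr1d1, Dbp and Nr1d2 near 0 on the y axis.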

How the data were processed

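Polyadenylated RNA of mouse ovary was measured by sequencing. Column-purified total RNA was treated with DNase, per the labels' protocols. For these libraries the kit, read length and strandedness are not given in the sources used. Expected counts, that is, estimated counts for whole genes, were deposited by the authors in 1 table of 54347 identifiers, of which 18.3% to 20.1% of the values in the 6 libraries were not whole. Salmon, DESeq2 and the build GRCm38 are named in the submitters' processing notes. An estimate divides reads among near-identical copies and overlapping genes, so values of such genes are uncertain.

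Counts were rounded to whole numbers and matched to GENCODE M21, and 253 identifiers had no symbol (0.0055% of counts). edgeR 4.0.16 in R 4.3.3 gave the tests (TMM factors, genes kept by filterByExpr per group, robust glmQLFit and glmQLFTest), with Benjamini-Hochberg adjustment over all genes tested, at a threshold of 0.05. The 3 WT libraries entered the fit of experiment 1 so that all groups share 1 estimate of spread. Experiment 2 was fitted apart, and the difference of contrasts in a fit over both. Levels are CPM on TMM-scaled totals, with the SD over libraries; list sums use total counts. Each library was counted as 1 sample. Pairs of libraries within a group differed by more than sampling noise, which does not show that they came from separate animals. Alternatives were size factors by median of ratios, every gene unfiltered, genes of at least 1 CPM, DESeq2 1.42.0, limma 3.58.1 voom, a replicate block, only the 6 libraries, and each library left out.

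Named genes were Fshb, a panel of hormone and steroid genes, and the 12 largest rises and falls among called genes. The rises and falls had at least 5 CPM and no overlap (no pseudogenes, predicted models or clone names). Up to 4 members per list and up to 4 called neighbours of Fshb were added, those with the smallest p. Kept calls of such members therefore do not describe their lists. Ribosomal gene copies and Igf1, Srd5a1, Lrp5, Tcf7, Agt and Cdkn1c were picked with their values in view, and 2 genes that the rule names are not reported here. The comparison, gene lists and rules were chosen with earlier results of these data known.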

Additional observations from a re-analysis of the deposited data

Results flagged for a closer look

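Several genes named above differed between the contrast of libraries labelled Fshb(-/-) with Fshb(+/-) in experiment 1 and that of Fshb(-/-) with the rescue in experiment 2, by a test of the difference itself. The difference of log2 fold changes, experiment 1 minus experiment 2, was 3.21 for Inhba and 3.002 for Cyp19a1, where the fall was larger against the rescue. It was 1.02 for Inha, 0.85 for Prkar2b, 0.86 for Esr2, 0.88 for Bmpr1b and 1.07 for Depdc7, all higher against Fshb(+/-) than against the rescue. Depdc7, a gene near Fshb, was higher against both groups (1.58 ± 0.18 and 0.495 ± 0.14). The difference was -1.49 for Nr1d1, -2.10 for Dbp, -0.98 for Nr1d2, -1.38 for Rnf43 and -2.21 for Muc16. These 5 were lower against Fshb(+/-), and of them Muc16 alone was called against the rescue, as higher. For Cemip it was -2.63, with a fall against both groups (-5.99 ± 1.12 and -3.36 ± 0.26). For Agt it was -1.5, with a rise against both groups (1.10 ± 0.30 and 2.6 ± 0.13). Of the near-identical ribosomal copies described below, Gm10260 had -9.18 and Rps18-ps3 -9.09.

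In experiment 2, 1 library lay far from the other 3 of its group for 11 combinations of gene and group, by Dixon's criterion, which chance meets in about 1 in 20 groups. The text names 125 genes, and the experiment has 2 groups, so cases in such number can arise by chance. They are given as levels only. Among libraries labelled Fshb(-/-) these were Prkar2b (1102 CPM), Esr2 (185 CPM), Nr1d2 (153 CPM), Depdc7 (20.8 CPM) and Zdbf2 (44.4 CPM). Oviduct and secretory genes gave the rest, with Foxj1 at 47.3 CPM in 1 Fshb(-/-) and 36.5 CPM in 1 rescue library, Anxa8 at 14.9 CPM in 1 Fshb(-/-) and 11.5 CPM in 1 rescue library, Ovgp1 at 419 CPM and Ltf at 22.3 CPM in 1 rescue library. For Ovgp1 the Fshb(-/-) libraries held 2.39, 2.69, 196 and 106 CPM and the rescue libraries 2.24, 419, 3.65 and 4.15 CPM. Ovgp1 was thus high in 2 Fshb(-/-) libraries and 1 rescue library of the second experiment, as well as in Fshb(+/-) replicate 3.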

How the results depend on the processing

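The count of 2928 genes called against Fshb(+/-) stayed within 1.5 times under median-of-ratios factors (2924), without a filter (2370), with a mean of at least 1 CPM (2859), with DESeq2 (3986), with limma voom (3839) and with only the 6 libraries (2426). Without 1 library it ran from 1362 to 2581, the higher genes from 860 to 1343 and the lower from 502 to 1238, with the lowest values each without an Fshb(-/-) library. Against the rescue the count ran from 3935 to 5613 without 1 library, and the difference of both contrasts was called for 71 to 218 genes. Same-numbered libraries of experiment 1 deviated with correlations of 0.02, -0.03 and 0.03, and not every library correlated best with its own number. With 3 libraries per group these values cannot decide whether samples were paired. A replicate block gave 2232 calls, 1238 higher and 994 lower, and kept 97 of the 118 called genes that the text names. Of these 118, 73 kept their call without any 1 library, 46 of the 60 higher and 27 of the 58 lower. These fits keep the WT libraries in the shared estimate of spread, and WT replicate 3 was near Fshb(-/-) for several lower genes. The sign reversed for 2 genes that were not called: Fshb ran from -0.11, without Fshb(+/-) replicate 1, to 0.62 without 1 library, and Lhcgr from -0.39 to 0.23, without Fshb(+/-) replicate 3, and was at 0.16 with limma voom. The cause was not tested. At 13.6 M to 16.5 M counts, genes with few counts in both groups were not resolved.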

Other observations

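Copies of ribosomal protein genes differed between the groups by large folds; they were chosen after their values were seen. Rps3a2 had 262, 292 and 242 CPM in the libraries labelled Fshb(-/-), against 0.918, 0 and 1.89 CPM in those labelled Fshb(+/-) and 0.605, 0.618 and 0 CPM in WT. Rps3a3 had 162, 233 and 162 CPM in Fshb(-/-), against 1.41, 0.906 and 1.04 CPM in Fshb(+/-) and 1.45, 1.11 and 1.07 CPM in WT. Both were high in Fshb(-/-) libraries and near 1 CPM elsewhere in the experiment. Their expressed relative Rps3a1 was at 659 ± 101 CPM in Fshb(-/-) and 744 ± 69.7 CPM in Fshb(+/-), and the sum of all 3 was 1110 ± 165 CPM in Fshb(-/-) and 746 ± 68.8 CPM in Fshb(+/-) (SD, n = 3 each). Other copies were high in Fshb(+/-) and low in Fshb(-/-) libraries, and for Gm15459 and Gm10260 the WT libraries were low as well. Gm15459 had 2.79, 3.15 and 2.34 CPM in Fshb(-/-), 436, 436 and 460.0 CPM in Fshb(+/-) and 2.78, 2.35 and 2.43 CPM in WT. Gm10260 had 0.303, 0.366 and 0.123 CPM in Fshb(-/-), 177, 172 and 129 CPM in Fshb(+/-) and 0.182, 0.432 and 0.475 CPM in WT. Rps18-ps3 had 0.121, 0.147 and 0.123 CPM in Fshb(-/-) and 52.9, 58.3 and 37.7 CPM in Fshb(+/-), while Rps18 itself was at 621 ± 131 CPM in Fshb(-/-) and 278 ± 42.8 CPM in Fshb(+/-). Against the rescue none of the 5 copies passed. How the quantifier shared reads among copies cannot be read from counts per gene.

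Called genes were spread over the genome. The share of tested genes called ran from 14.8% on chromosome 18 to 19.6% on chromosome 9. On the X chromosome 107 of 571 tested genes were called (18.7%), 79 higher and 28 lower. Within 10 Mb of Fshb on chromosome 2, 16 of 72 were called (22.2%), 8 higher and 8 lower. The nearest by p were Lpcat4, a phospholipid acyltransferase gene, with 34.9, 38.2 and 31.2 CPM in the libraries labelled Fshb(-/-) and 12.4, 13.4 and 15.4 CPM in those labelled Fshb(+/-) (1.34 ± 0.13, adjusted p = 0.00056), Depdc7 (1.58 ± 0.18, 0.0011), Pamr1 (-1.17 ± 0.14, 0.0012) and Rcn1, a calcium-binding protein gene of the endoplasmic reticulum (0.67 ± 0.09, 0.002). All 4 moved in the same direction against the rescue (1.34 and 0.72 for Lpcat4, in experiments 1 and 2).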
